A study of Mus musculus with 8 samples.

Results

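The transcription factors Tbx21 (T-bet), Eomes, Gata3, Rora and Ahr, the Runx genes Runx1, Runx2 and Runx3, and Cbfb, the partner chain of Runx proteins, were followed in activated CD4 T cells of mice with and without Bcl6. Members were taken by gene symbol, 9 in all, and 8 of them are among the 19938 genes tested. Each of the 8 was read by 1 transcript cluster (a group of probes for 1 transcript), and no filter on low values was applied. Runx2 was not analysed here.

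The tested arrays held RNA of T cell-specific conditional Bcl6-/- mice (Bcl6 cKO, n = 4), and the comparison arrays that of wild-type mice (n = 4). All cells were sorted as naive CD4 T cells, which have not yet met antigen, and were stimulated through CD3 and CD28 with antibodies over 24 hours before RNA isolation. The labels give no promoter for the deletion, no deleted exons, no age or sex of the mice, no meaning of the tag Tf0, and no word on whether each sample came from its own mouse. P-values therefore measure the spread between these samples, which may be technical. Values are log2 signals of a whole-transcript array, normalized by the authors.

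Helper T cells take on different tasks under the control of lineage factors. T-bet drives the interferon-gamma program of Th1 cells, with Eomes as a related T-box factor best known from cytotoxic cells. Gata3 drives the Th2 program and is also needed for CD4 T cells to form. Rora, a nuclear receptor, and Ahr, a receptor for dietary and environmental ligands, take part in the Th17 program. Runx proteins bind DNA together with Cbfb. Runx3 acts with T-bet in Th1 cells and takes part in the silencing of Cd4 in CD8 T cells, and Runx1 is the main Runx factor of resting CD4 T cells. Bcl6, the repressor deleted here, directs follicular helper T cells and is known to oppose the other helper fates.

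One annotated promoter of each Runx gene carries letters of the motif that Runx proteins bind. These windows are shown because the 3 Runx genes share a stretch of it that the measurements did not use. RefSeq windows of 300 bases (250 before and 50 after the annotated start, build GRCm38.p6) were at hand for 8 of the 9 members, Ahr being the exception, in 10 windows. The windows with the shared stretch are given 5′ to 3′ on the gene's strand, with capitals for the Runx motif TGTGGT, read on both strands (ACCACA on the strand shown), and for the bases between paired sites.
Runx1, chr16:92826025-92826324, minus strand: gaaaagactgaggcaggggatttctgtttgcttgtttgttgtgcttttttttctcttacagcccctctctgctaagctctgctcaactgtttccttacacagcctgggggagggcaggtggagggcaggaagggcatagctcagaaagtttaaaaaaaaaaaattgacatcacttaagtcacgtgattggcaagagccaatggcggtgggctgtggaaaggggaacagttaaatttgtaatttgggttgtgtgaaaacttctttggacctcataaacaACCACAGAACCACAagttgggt
Runx2, chr17:44814578-44814877, minus strand: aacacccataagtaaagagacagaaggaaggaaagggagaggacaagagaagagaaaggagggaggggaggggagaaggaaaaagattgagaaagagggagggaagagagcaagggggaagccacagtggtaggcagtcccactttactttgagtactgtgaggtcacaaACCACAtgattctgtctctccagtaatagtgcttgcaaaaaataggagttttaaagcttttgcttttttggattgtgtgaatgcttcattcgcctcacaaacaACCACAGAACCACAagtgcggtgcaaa
Runx3, chr4:135120395-135120694, plus strand: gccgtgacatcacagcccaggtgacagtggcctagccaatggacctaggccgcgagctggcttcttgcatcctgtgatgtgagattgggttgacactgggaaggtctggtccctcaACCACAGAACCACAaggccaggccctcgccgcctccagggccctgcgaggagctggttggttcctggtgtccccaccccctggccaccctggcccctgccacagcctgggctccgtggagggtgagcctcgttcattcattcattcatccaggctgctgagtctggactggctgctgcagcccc
The paired site ACCACAGAACCACA, which contains the Runx motif at both ends, began at base 279 of the Runx1 window, 274 of the Runx2 window and 117 of the Runx3 window, counted from the 5′ end. The second windows of Runx1 and Runx3 held no Runx motif, and neither did those of Tbx21, Eomes, Gata3, Rora and Cbfb. The longest run shared by the 3 windows was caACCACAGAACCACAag, 18 bases. Of 32851 promoter windows 5506 (16.8%) held the motif TGTGGT or its complement, and 4 (0.0122%) held the paired site. The fourth is that of Gm16225, whose window on the opposite strand overlaps that of Runx3. The paired site was searched for after the windows had been seen. Other motifs were read on both strands too. The GATA motif AGATAA, held by 11.2% of windows, was in no window of a member. The same was true of the T-box motif AGGTGT (13.7% of windows). It was also true of the Bcl6 core motif TTCCTNGAA (1.59% of windows). The dioxin response motif GCGTG, to which Ahr is known to bind, was in the Rora window and in the second Runx1 window, and in 32.4% of all windows. A match is a description of letters and not of binding, and these windows leave out distant elements.

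Some facts of the whole array set touch the results. The signal of Bcl6 was 9.05, 8.67, 8.83 and 8.40 on the Bcl6 cKO arrays and 8.47, 8.33, 8.56 and 8.10 on the wild-type arrays (replicates 1 to 4), a log2 difference of 0.37 (limma adjusted p = 0.337, exact permutation p = 0.0857). Its 1 cluster may read exons that were kept, so it checks nothing about the labels. Xist was high and Y-linked genes were low on Bcl6 cKO replicates 2, 3 and 4 and on wild-type replicate 4, and the reverse held on the other 4 arrays. Wild-type replicate 4 had the lowest array weight (0.367, against 0.759 to 1.49 on the other 7). T cell genes were strong on every array, with means of 10.96 to 13.15 for 9 genes such as Cd3e and Cd4. NK cell markers had means of 4.00 to 5.94 (6 genes, Ncr1 and Klrb1c among them), B cell markers 5.06 to 7.47 (7 genes) and myeloid markers 5.50 to 7.01 (9 genes). These lie within or below the range of 14 genes of other organs, such as Alb and Gfap, whose means ran from 4.88 to 8.25. The median of these 14 means was 6.53. In bulk RNA, fewer cells of a type and less RNA per cell cannot be told apart.

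None of the 8 members passed the threshold of 0.05 on the limma p-value adjusted over all genes, against 44 of 19938 genes in all (0.221%). Unadjusted, 2 members (Tbx21 and Ahr, both above wild type) had a p under 0.05, as did 10.8% of all genes and, above wild type, 4.67%. No member had groups that did not overlap, as did 5.97% of all genes. By their differences, 5 members lay above and 3 below wild type, with a median log2 difference of 0.05, against 0.00 over all genes (0.0025 before rounding). The members also varied unequally from array to array. The range over the 8 arrays was 2.92 for Tbx21, 1.53 for Gata3, 1.35 for Eomes and 0.89 for Ahr, but 0.47 for Rora, 0.34 for Runx3, 0.32 for Runx1 and 0.19 for Cbfb. Ranges above 1 were found for 1.47% of all genes.

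**Figure D1:**
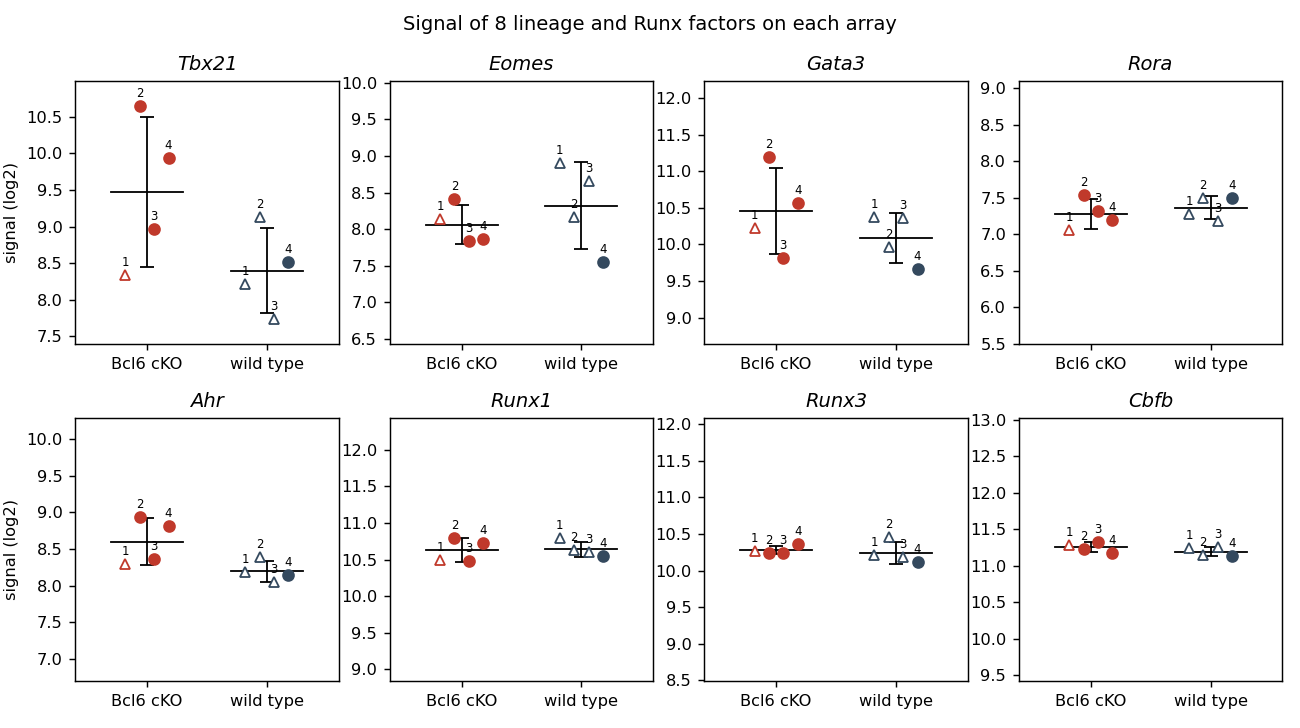
Signal (log2) of 8 members on each array, Bcl6 cKO left and wild type right, with replicate numbers beside the points, lines and bars for mean ± SD (n = 4 each), filled circles for arrays with high Xist and open triangles for arrays with high Y-linked signal. Every panel spans the same height, so the spread of Tbx21 on the Bcl6 cKO arrays, 8.33 to 10.65, can be set beside that of Cbfb, 11.17 to 11.32.

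Tbx21 encodes T-bet and showed the largest difference among the members. Its signal was 8.33, 10.65, 8.97 and 9.94 on Bcl6 cKO replicates 1 to 4, against 8.22, 9.13, 7.73 and 8.51 on wild-type replicates 1 to 4. Bcl6 cKO replicates 2 and 4 stood above every wild-type array, while replicates 1 and 3 lay inside the wild-type range. The means were 9.47 ± 1.03 in Bcl6 cKO and 8.40 ± 0.58 in wild type (SD, n = 4 each), a log2 difference of 1.08 (95% confidence interval 0.09 to 2.06, not adjusted for the number of genes). No fold is given, since wild-type replicates 1 and 3 read within the range of means of the genes of other organs. The difference did not pass (limma adjusted p = 0.409; two-sided exact permutation p = 0.171, where 0.0286 is the smallest that 4 against 4 arrays allow). Without Bcl6 cKO replicate 2 the log2 difference of Tbx21 was 0.68, against 1.08 with all arrays.

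Within each genotype the even-numbered arrays read higher for Tbx21 than the odd-numbered ones. The labels give no meaning to the replicate numbers beyond naming the samples. A split by even and odd numbers thus has no basis outside these values, and its p-values are no test of an array effect. In a fit with genotype, sex and even or odd number, Tbx21 was 1.24 higher on even-numbered arrays (SE 0.30, adjusted p = 0.231) and 1.07 higher in Bcl6 cKO (adjusted p = 0.368). With even or odd number as the only added term, a setting added after the data were seen, its genotype difference had an adjusted p of 0.0906. In the fit with genotype, sex and even or odd number, the even-numbered arrays were also 0.39 higher for Ahr (SE 0.11, adjusted p = 0.386). In that fit they were lower for Eomes (-0.16) and Cbfb (-0.11) and higher for the other members. Over all genes 51 of 19938 passed for even or odd number.

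Eomes, the related T-box factor, ordered the arrays differently from Tbx21. Its signal was 8.14, 8.41, 7.84 and 7.86 on the Bcl6 cKO arrays, against 8.90, 8.17, 8.66 and 7.55 on the wild-type arrays. The wild-type arrays enclosed all Bcl6 cKO arrays, with wild-type replicates 1 and 3 the highest of the 8 and wild-type replicate 4 the lowest. The means were 8.06 ± 0.27 in Bcl6 cKO and 8.32 ± 0.60 in wild type (SD, n = 4 each), a log2 difference of -0.26 (95% confidence interval -0.81 to 0.29, adjusted p = 0.792). No fold is given, since the Bcl6 cKO mean lay within the range of the genes of other organs. The Eomes difference was -0.51 without wild-type replicate 4 and -0.06 without wild-type replicate 1. Of the 13 other T-box genes measured 7 lay above and 6 below wild type, and none passed. The smallest p among them belonged to Tbx6, a factor of embryonic mesoderm (log2 difference -0.22, SE 0.08, adjusted p = 0.347), followed by Tbx19 (0.11) and Tbr1 (0.08).

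Gata3 was highest on the same array as Tbx21. Its signal was 10.23, 11.20, 9.81 and 10.57 on Bcl6 cKO replicates 1 to 4, against 10.38, 9.96, 10.36 and 9.67 on wild-type replicates 1 to 4. Bcl6 cKO replicate 2 was the highest array, replicate 4 came next, and Bcl6 cKO replicates 1 and 3 lay among the wild-type arrays. The means were 10.45 ± 0.59 in Bcl6 cKO and 10.09 ± 0.34 in wild type (SD, n = 4 each), a 1.28-fold difference with a 95% confidence interval of 0.863 to 1.91 (adjusted p = 0.689). Without Bcl6 cKO replicate 2 the Gata3 difference was 0.11 on the log2 scale, against 0.36 with all arrays. It was -0.03 without both this array and wild-type replicate 4. Among 12 genes of the GATA family and its partners 5 lay above and 7 below wild type, and none passed. Trps1, a GATA-type zinc finger repressor, had a difference of -0.26 (adjusted p = 0.348), Lmo4, a LIM-only adaptor, of -0.16 (adjusted p = 0.43) and Gata6 of -0.13 (adjusted p = 0.465).

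Ahr had the smallest p of the members. Its signal was 8.29, 8.94, 8.36 and 8.81 on the Bcl6 cKO arrays, against 8.19, 8.39, 8.05 and 8.15 on the wild-type arrays. As for Tbx21, Bcl6 cKO replicates 2 and 4 were the highest of the 8, and replicates 1 and 3 lay between wild-type arrays. The means were 8.60 ± 0.32 in Bcl6 cKO and 8.20 ± 0.14 in wild type (SD, n = 4 each), with a log2 difference of 0.41 (95% confidence interval 0.10 to 0.71). It did not pass (limma adjusted p = 0.308, exact permutation p = 0.0857). The wild-type mean lay within the range of the genes of other organs, so no fold is given. Genes of the Ahr pathway showed no shared direction by count. Of 12 measured genes for its protein complex and its targets 5 lay above and 7 below wild type, with a median of -0.02 and none past the threshold. The chaperone genes Hsp90aa1 (0.12) and Ptges3 (0.09), whose products hold Ahr in the cytoplasm, lay above wild type (adjusted p = 0.441 and 0.543). The groups of Ptges3 did not overlap, as for 2.33% of all genes in this direction. Nfe2l2, the oxidative stress factor Nrf2, had 10.65, 10.70, 10.59 and 10.61 on the Bcl6 cKO arrays, against 10.80, 11.00, 10.93 and 11.00 on the wild-type arrays. Its groups did not overlap, as for 3.64% of all genes in this direction, but the difference of -0.29 (SE 0.06) did not pass (adjusted p = 0.0789), except with trend and robust moderation (adjusted p = 0.0471).

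Rora, the other Th17-related member, was 7.06, 7.53, 7.32 and 7.19 on the Bcl6 cKO arrays, against 7.28, 7.49, 7.18 and 7.50 on the wild-type arrays. Bcl6 cKO replicate 2 was above and replicate 1 below every wild-type array, the other Bcl6 cKO arrays lay among them, and the difference was -0.09 (95% confidence interval -0.32 to 0.14, adjusted p = 0.849). Both means, 7.28 in Bcl6 cKO and 7.36 in wild type, lay within the range of the genes of other organs. The relatives Rorb, Nr1d1 and Nr1d2 all lay above wild type, by 0.12, 0.26 and 0.11, and none passed. Nr1d1 and Nr1d2 encode Rev-erb repressors, which bind the same DNA element as Ror proteins.

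**Figure D2:**
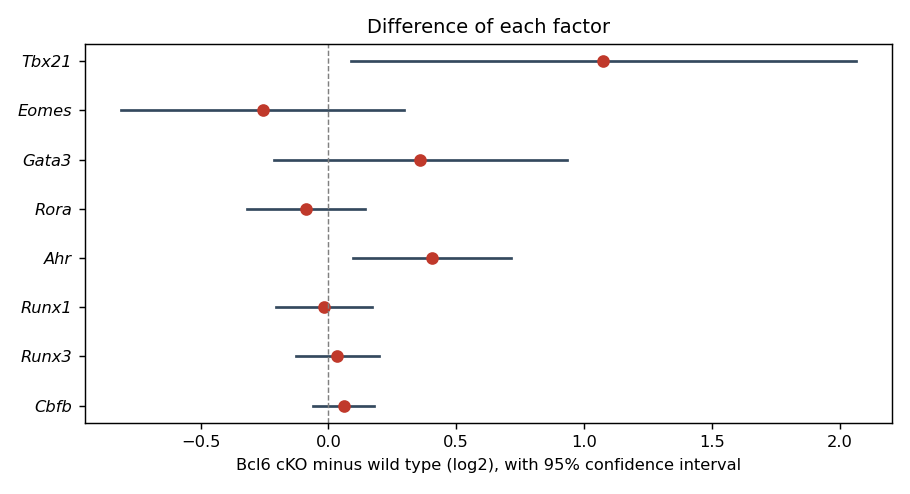
Log2 difference (Bcl6 cKO minus wild type, n = 4 each) of 8 members, points with 95% confidence intervals from limma that are not adjusted for the number of genes. The interval of Tbx21 runs from 0.09 to 2.06 and that of Cbfb from -0.06 to 0.18.

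Runx1, Runx3 and Cbfb had the narrowest ranges of the members over the arrays. Among all genes the range of Cbfb was at percentile 16.5. Those of Runx1 and Runx3, at percentiles 60.5 and 66.6, were wider than those of most genes. Runx1 was 10.49, 10.80, 10.48 and 10.73 on the Bcl6 cKO arrays, against 10.79, 10.63, 10.60 and 10.55 on the wild-type arrays. The Bcl6 cKO arrays reached from below to just above the wild-type range, and the difference of -0.02 (95% confidence interval -0.20 to 0.17, adjusted p = 0.974) was smaller than either SD (0.16 in Bcl6 cKO, 0.10 in wild type). Runx3 was 10.27, 10.24, 10.24 and 10.36 on the Bcl6 cKO arrays, against 10.21, 10.46, 10.18 and 10.12 on the wild-type arrays. All Bcl6 cKO arrays lay inside the wild-type range, and the difference was 0.03 (95% confidence interval -0.13 to 0.20, adjusted p = 0.927). Cbfb was 11.29, 11.23, 11.32 and 11.17 on the Bcl6 cKO arrays, against 11.24, 11.15, 11.25 and 11.13 on the wild-type arrays. Its SDs were 0.07 and 0.06, and the difference of 0.06 (95% confidence interval -0.06 to 0.18) did not pass (adjusted p = 0.771). As folds, the 95% intervals were 0.868 to 1.12 for Runx1, 0.915 to 1.15 for Runx3 and 0.959 to 1.13 for Cbfb.

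Runx1 lies on chromosome 16, as Bcl6 does, where 11 of 648 tested genes passed the threshold, against 44 of 19938 over all genes (0.221%). Counted in tested genes of the GRCm38.p6 gene order, Runx1 is 373 genes after Bcl6. Of the 11 past the threshold 10 lie between Bcl6 and Runx1, the farthest 199 after Bcl6, and none lies beyond Runx1. The other lies before Bcl6, at a distance that was not measured.

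Corepressors, which Runx proteins recruit to silence genes, showed no call. Of 11 Runx corepressor genes 5 lay above and 6 below wild type, none passed, and the median was -0.01. Hdac1, a histone deacetylase, was 12.45, 12.41, 12.43 and 12.38 on the Bcl6 cKO arrays, against 12.20, 12.21, 12.01 and 12.16 on the wild-type arrays (difference 0.27, SE 0.06, adjusted p = 0.0911). Tle4, a Groucho-type corepressor that binds Runx proteins, was 10.08, 9.85, 9.78 and 9.70 on the Bcl6 cKO arrays, against 10.27, 10.17, 10.21 and 10.09 on the wild-type arrays (difference -0.33, SE 0.08, adjusted p = 0.146). The groups of Hdac1 and Tle4 did not overlap, in opposite directions, as for 2.33% of all genes above and 3.64% below wild type, and neither passed. Each passed in 1 of 22 other settings, Hdac1 with trend and robust moderation (adjusted p = 0.0295) and Tle4 without Bcl6 cKO replicate 1 (adjusted p = 0.0279). Tle3 had a difference of -0.17 (adjusted p = 0.589).

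All 15 measured genes of the choice between the CD4 and CD8 fates, in which Runx proteins and Zbtb7b oppose each other, lay below wild type, with a median of -0.09 and none past the threshold. Unadjusted, 5 of them had a p under 0.05, as did 6.17% of all genes in this direction. The groups of 4 of them (Zbtb7b, Cd8b1, Lef1 and Ets1) did not overlap, against 3.64% of all genes in this direction. Several of the 15 differences were smaller than their SE. Examples are -0.0025 for Tcf3 (SE 0.06), -0.0125 for Tcf12 (SE 0.04) and -0.0175 for Satb1 (SE 0.13). Cd8b1, a chain of the CD8 coreceptor, was 10.52, 10.56, 10.78 and 10.41 on the Bcl6 cKO arrays, against 10.90, 11.12, 11.02 and 11.12 on the wild-type arrays (difference -0.47, SE 0.08, adjusted p = 0.0541). It passed in 6 of 22 other settings, with 0.028 as the lowest adjusted p. Cd8a, the other chain, was 6.90 to 7.05 in Bcl6 cKO and 6.93 to 7.14 in wild type, within the range of the genes of other organs. Lef1 and Ets1, both T cell transcription factors, differed by -0.23 (adjusted p = 0.177) and -0.21 (adjusted p = 0.178). Of the 9 T cell identity genes, Cd4 being on both lists, 8 also lay below wild type, as did 9547 of 19938 genes tested. None of the 9 passed. Their mean over the list was 12.29 to 12.40 in Bcl6 cKO and 12.43 to 12.44 in wild type, and their part in the values of the CD4 and CD8 fate genes was not tested.

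The genes whose array pattern came nearest to those of the 3 widest-ranging members were sought among all genes. Over the 8 arrays, the gene whose deviations from its own mean came nearest to those of Tbx21 was Ifng, the Th1 cytokine interferon-gamma, with a mean absolute difference of 0.25 on the log2 scale. Ifng was 7.24, 9.92, 7.55 and 8.40 on the Bcl6 cKO arrays, against 7.07, 7.75, 7.17 and 7.36 on the wild-type arrays. Next came Ccl1, a chemokine gene (0.26), with 7.60, 10.29, 7.73 and 9.06 on the Bcl6 cKO arrays, against 7.65, 8.09, 7.42 and 7.93 on the wild-type arrays. Both peaked on Bcl6 cKO replicate 2, had their next value on replicate 4, and did not pass for genotype (adjusted p = 0.518 and 0.557). Nearest to Gata3 were D630039A03Rik (0.14) and the mast cell carboxypeptidase gene Cpa3 (0.15). Cpa3 was dim, at 4.82 to 6.22 in Bcl6 cKO and 4.83 to 5.20 in wild type. Nearest to Eomes were Nkg7, a granule protein gene of cytotoxic cells (0.11), and the small GTPase gene Rhoq (0.12). Nkg7 was 8.51, 8.98, 8.19 and 8.59 on the Bcl6 cKO arrays, against 9.13, 8.60, 9.04 and 7.98 on the wild-type arrays. Wild-type replicates 1 and 3 were its highest arrays and wild-type replicate 4 its lowest. The nearest genes were picked by likeness of pattern, so shared high and low arrays follow from the choice.

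**Figure D3:**
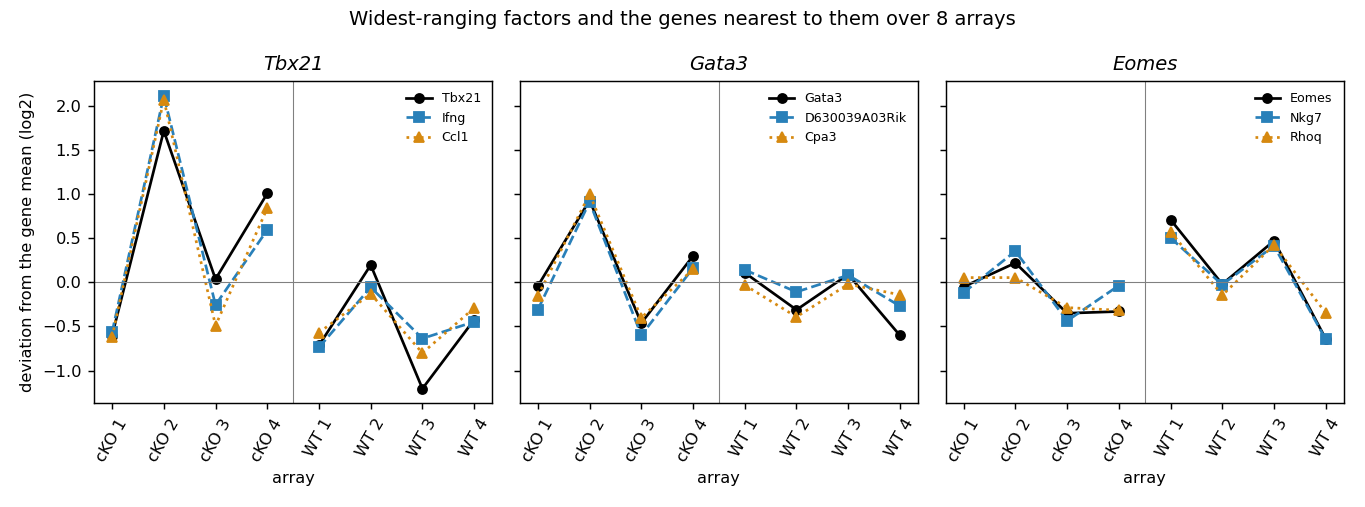
Deviation from each gene's mean (log2) on the 8 arrays, Bcl6 cKO left of the line and wild type right, for the 3 members with the widest range and the pair of genes nearest to each. Tbx21, Ifng and Ccl1 peak on Bcl6 cKO replicate 2, and Eomes, Nkg7 and Rhoq are high on wild-type replicates 1 and 3.

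Bcl6 cKO replicate 2 was the highest of the 8 arrays, ties included, for 5 of the 8 members (Tbx21, Gata3, Rora, Ahr and Runx1), against 13.5% of all genes. The same array was highest for 12 of 20 Th2 genes, 10 of 15 Th17 genes and 6 of 24 Th1 genes. Among the Th2 cytokines, Il4 read 8.02 on this array and 6.60 to 6.96 on the other Bcl6 cKO arrays, against 6.49 to 6.90 in wild type. Il13 read 8.40 on this array and 7.26 to 7.80 on the other Bcl6 cKO arrays, against 7.23 to 7.36 in wild type. Il12rb2, the T-bet-dependent receptor chain for interleukin-12, was 7.02, 9.04, 7.39 and 8.08 on the Bcl6 cKO arrays, against 7.66, 8.27, 7.43 and 7.77 on the wild-type arrays (difference 0.10, adjusted p = 0.964). Of 9 myeloid markers 2 were also highest there, the lysozyme gene Lyz2 at 7.67 (5.82 to 6.37 on the other Bcl6 cKO arrays, 5.98 to 6.58 in wild type) and Spi1 at 6.79 (6.34 to 6.60 on the other Bcl6 cKO arrays, 6.31 to 6.52 in wild type). Other myeloid markers went the other way on Bcl6 cKO replicate 2. Cd14 (6.06), Itgam (6.08) and Clec7a (6.02) were lowest there, and Fcgr3 (6.78) tied for lowest. The mean over the myeloid list was 6.21 to 6.40 in Bcl6 cKO and 6.23 to 6.33 in wild type, and its part in the values of the members was not tested. The count for Th1 genes on this array equals that on Bcl6 cKO replicate 3. These counts were made after the values had been seen.

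By genotype, 15 of 24 Th1 genes lay above wild type with a median of 0.02, and Ccl3, a chemokine gene, was the 1 past the threshold (1.64, adjusted p = 0.0154). Ccl4 (0.76, adjusted p = 0.149) and Il12rb1 (0.30, adjusted p = 0.181, but 0.0487 without Bcl6 cKO replicate 1) came next. Ccl3 was highest on another array than Tbx21. It was 11.39, 11.92, 12.20 and 11.76 on the Bcl6 cKO arrays, against 10.22, 10.71, 9.71 and 10.08 on the wild-type arrays. Every Bcl6 cKO array was above every wild-type array, as for 2.33% of all genes. With sex as a term Ccl3 had an adjusted p of 0.0941, and its adjusted p missed the threshold in 10 of 22 other settings. Of 20 Th2 genes 13 lay above wild type (median 0.11, none past the threshold), with the smallest p for Epas1, a hypoxia-related factor (-0.25), then the cytokine gene Il3 (2.23, adjusted p = 0.265) and Cyp11a1 (0.18). Of 15 Th17 genes 9 lay above wild type (median 0.08, none past the threshold). The Th17-related Nfkbiz, an inhibitor-of-kappaB family gene, was 10.04, 9.81, 9.78 and 9.68 on the Bcl6 cKO arrays, against 10.25, 10.29, 10.26 and 10.21 on the wild-type arrays (-0.42, SE 0.07, adjusted p = 0.0536). It passed in 6 of 22 other settings, with 0.00988 (without Bcl6 cKO replicate 1) as the lowest adjusted p. The interleukin-6 receptor chain genes Il6st and Il6ra differed by -0.23 (adjusted p = 0.164) and -0.30 (adjusted p = 0.267).

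Markers of other cells that use these factors were read beside them. Of 5 markers of group 2 innate lymphoid cells, which depend on Gata3 and Rora, 4 lay above wild type and none passed. Over all genes 10391 of 19938 lay above. Il5 and Il13 on this list were highest on Bcl6 cKO replicate 2, but both are also on the Th2 list, as is Il17rb. On that array Il17rb (6.68) was at its lowest, and Arg1 (6.30) was lower only on wild-type replicate 2. NK cell markers, of cells that use Tbx21 and Eomes, were 3 above and 3 below wild type, with list means of 4.94 to 5.01 on the Bcl6 cKO arrays and 4.99 to 5.08 on the wild-type arrays. Of 8 regulatory T cell markers 2 lay above and 6 below wild type, and Nrp1 was the 1 past the threshold (0.81, adjusted p = 0.0358, past it in 8 of 21 other settings). Gpr83 (-1.20, SE 0.23, adjusted p = 0.0664) did not pass. Neither did Foxp3, the defining factor of these cells (-0.50, SE 0.14, adjusted p = 0.199). The groups of both did not overlap, below wild type, as for 3.64% of all genes in this direction. The part of these markers in the values of the members was not tested.

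The groups differ in sex markers, so the members were also compared within each sex class. Where Y-linked signal was high, Bcl6 cKO replicate 1 against wild-type replicates 1, 2 and 3, the log2 difference was -0.03 for Tbx21, 0.00 for Gata3 (-0.0033 before rounding), 0.08 for Ahr and -0.44 for Eomes. Where Xist was high, Bcl6 cKO replicates 2, 3 and 4 against wild-type replicate 4, it was 1.34 for Tbx21, 0.86 for Gata3, 0.55 for Ahr and 0.49 for Eomes. Each of these rests on 1 array of a genotype, which is assumed to vary like the others. Where Xist was high that array was wild-type replicate 4, which had the lowest array weight (0.367). Its deviations from the gene medians also had the widest interquartile range, 0.18 against 0.085 to 0.115 on the other arrays. The difference between the classes was itself tested as an interaction, with adjusted p-values of 0.56 for Tbx21, 0.587 for Gata3, 0.546 for Ahr and 0.431 for Eomes. With sex as a term over all 8 arrays, the genotype difference was 0.66 for Tbx21 (adjusted p = 0.677), 0.43 for Gata3, 0.32 for Ahr and 0.03 for Eomes (0.025 before rounding). For Runx1, Runx3 and Cbfb the differences within either class lay between -0.18 and 0.16.

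**Figure D4:**
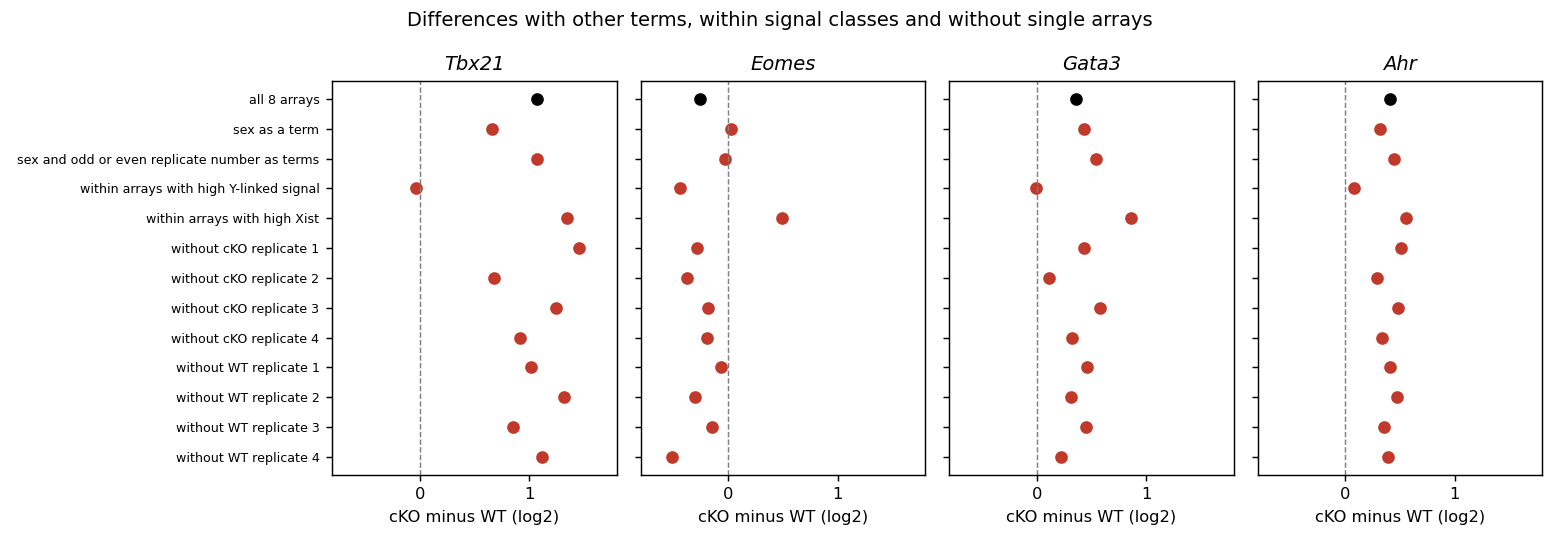
Log2 difference (Bcl6 cKO minus wild type) of Tbx21, Eomes, Gata3 and Ahr with all 8 arrays (black), with added terms, within the arrays of each signal class, and without each array in turn (red). Tbx21 runs from -0.03 to 1.46 and Ahr from 0.08 to 0.55 over the settings drawn.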

How the data were processed

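RNA of 8 samples (4 Bcl6 cKO, 4 wild type) was hybridised to 8 arrays. The authors deposited log2 values with 2 decimals, made with RMA and Partek per the submitters' processing notes. Their versions and settings, and a genome build, are not stated in these sources. RMA brings the probe signals of all arrays to a shared distribution and lowers differences of dim genes. The array medians of the genes tested still ran from 7.57 to 7.64. Of 35556 clusters 21789 have 1 gene symbol in the platform annotation, 1621 several and 12146 none. The cluster with the highest mean was kept for each of 19938 genes. Arrays have no read depth, so their number limits the precision. Over all genes a log2 difference had a median SE of 0.0653.

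The comparison used lmFit and eBayes of limma 3.58.1 (R 4.3.3) without covariate, with a Benjamini-Hochberg adjusted p of 0.05, taken over all genes, as threshold. Differences within a signal class came from a fit of genotype-by-class means over all 8 arrays. Lists are described by counts and medians only. Named are the members, Bcl6, the sex markers, list genes past the threshold, the 3 genes with the smallest p of each family, partner and program list, and the 2 genes nearest to each of the 3 widest-ranging members. Other genes given as examples (Il4, Il13, Il12rb2, Cd8a, Lyz2, Spi1, Gpr83, Foxp3 and the other marker genes) were picked after their values were seen. So were Tcf3, Tcf12 and Satb1. The members and lists were chosen with earlier results of these data known. The steps were tested on simulated data. Promoters came from RefSeq tables of GRCm38.p6. Alternatives were median centring, quantile normalization, trend and robust moderation, array weights, filters on dim genes, averaged clusters, the replicate block, sex, even or odd number, signal classes, each array left out and other thresholds.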

Additional observations from a re-analysis of the deposited data

Results flagged for a closer look

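No member had an array that stood apart from the other 3 of its group. Among 43 genes named, in 86 groups of 4 arrays, 5 values did, where chance gives about 1 in 20 groups. Bcl6 cKO replicate 1 was low for Nrp1 at 7.54 (8.03 to 8.08 on the other 3 Bcl6 cKO arrays), low for Hsp90aa1 at 13.01 (13.10 to 13.11) and high for Il6st at 12.07 (11.87 to 11.90). This is the 1 Bcl6 cKO array with high Y-linked signal. In wild type, replicate 1 was low for Il6st at 12.08 (12.19 to 12.20 on the others) and replicate 4 was high for Ets1 at 11.98 (11.85 to 11.87).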

How the results depend on the processing

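No member passed the threshold under any of the 24 other settings or thresholds, while the count over all genes, 44, did move. It was 91 with trend and robust moderation, 80 with array weights, 67 without genes under the 30th percentile, 75 without those under the median, 10 with sex as a term and 10 with sex and even or odd number, 0 where Y-linked signal was high (limma, 852 at an unadjusted p under 0.05), and 93 with even or odd number, a term added after the data were seen. It was 132 at an adjusted p of 0.1 and 8 at 0.01. Without single arrays it ran from 11 to 139 (without Bcl6 cKO replicate 1), and without both wild-type replicate 4 and Bcl6 cKO replicate 2, a setting also added later, it was 14. With the replicate block 35 genes passed, 23 of them among the 44, and the adjusted p was 0.117 for Tbx21 and 0.143 for Ahr. Same-numbered samples deviated together by correlations of 0.0731, 0.206, 0.203 and 0.205 (replicates 1 to 4), and wild-type replicates 2, 3 and 4, but not 1, correlated best with the Bcl6 cKO sample of their own number. This is a hint from the data and not the design, and since replicate 1 fell below 0.1 the numbers were not taken to pair the samples. The block changed the SE of Tbx21 to 0.21, against 0.45 without it, and no member passed. After median centring 19 genes were higher and 13 lower, after quantile normalization 22 and 14, against 21 and 23.

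Rora, Ahr and Cbfb kept their sign in every setting run. The signs that turned were those of small differences or rested on few arrays, and the cause was not tested. With sex as a term these were Eomes (0.025) and Nkg7 (0.10), and with sex and even or odd number Runx1 (0.005) and Nkg7 (0.12). Where Y-linked signal was high they were Tbx21 (-0.03), Gata3 (-0.0033), Runx3 (-0.013), Nr1d2 (-0.053), Ifng (-0.09), Ccl1 (-0.12), Cpa3 (-0.0033) and D630039A03Rik (-0.35). Where Xist was high they were Eomes (0.49), Runx1 (0.12), Lmo4 (0.023), Rorb (-0.0067), Nkg7 (0.61) and Rhoq (0.16). Without both wild-type replicate 4 and Bcl6 cKO replicate 2 they were Gata3 (-0.03) and D630039A03Rik (-0.29), and with array weights D630039A03Rik (-0.037). Without single arrays, Runx1 ran from -0.076 to 0.032, Runx3 from -0.0058 to 0.11, Nkg7 from -0.36 to 0.0275 and D630039A03Rik from -0.21 to 0.29. Each member had 1 cluster, so no other cluster could be tried. Rora, Eomes, Ahr and, in wild type, Tbx21 had values within the range of the genes of other organs, where signal over background limits them. Their mean signals over all arrays were at percentiles 45.3 (Rora), 57.4 (Eomes), 59.45 (Ahr) and 65.2 (Tbx21) of all genes.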
